A study of Mus musculus with 1505 samples.

Results

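Pvalb Il1rapl2 is a transcriptomic type (t-type) of interneuron in mouse primary motor cortex. Its cells were taken as those recorded at room temperature whose label gives exactly this t-type, which were 88 of 1505 cells in the series. They were set beside the 198 room-temperature cells of the 8 other Pvalb t-types, which were Pvalb Reln (72 cells), Pvalb Calb1_2 (30), Pvalb Gpr149 (30), Pvalb Kank4 (22), Pvalb Vipr2_2 (17), Pvalb Egfem1 (11), Pvalb Calb1_1 (9) and Pvalb Gabrg1 (7). The study used Patch-seq, in which a neuron in an acute slice is recorded electrically and its RNA is then drawn into the pipette, amplified with Smart-seq2 and sequenced. The mice were adult males and females, either wild type or carrying a Cre driver with a fluorescent reporter that marked the cells to be patched. The labels do not say which mouse or which driver line a cell came from. Each t-type was therefore treated as 1 sample, and no test between t-types was made. The authors assigned the t-types from this same RNA, so that every difference between t-types given here is a description.

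Parvalbumin interneurons are GABAergic cells that arise in the medial ganglionic eminence and fire brief action potentials at high rates. Most are basket cells, whose axons surround the cell bodies of their targets, and chandelier cells, which contact axon initial segments, form a separate group. Il1rapl2 belongs to the interleukin-1 receptor family, and its close relative Il1rapl1 is known as a synaptic adhesion protein. Basket cell morphology cannot be read from RNA and was not examined here.

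The 88 cells held 11411 to 5418786 exonic counts per cell with a median of 1407668, against 21953 to 13543846 with a median of 1457400 in the other Pvalb cells. The median number of genes detected was 7396 in these cells and 7593 in the other Pvalb cells. By the date in the sample titles, 66 of the 88 cells were from 2018 and 22 from 2019, against 86 and 112 of the other Pvalb cells. The 2 years also differed in t-types, since 55 of the 86 other Pvalb cells of 2018 were Pvalb Reln cells and the 17 Pvalb Vipr2_2 cells were all from 2019. A difference between the years in the pooled comparison therefore also holds a difference in t-types, and the part of each was not tested. Of the 8 other t-types, 5 had cells in both years.

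All 4 markers of the t-type were read in 44 of the 88 cells, 3 of them in 33 cells and 2 of them in 11 cells. Pvalb, the calcium-binding protein that names the subclass, ranged over cells from 0.766 to 1759 CPM (exonic counts of a gene scaled to the total of the cell) with a median of 166 CPM, against 0 to 2697 CPM with a median of 176 CPM in the other Pvalb cells. It alone of the 4 markers had a read in all 88 cells. The groups overlapped over nearly their whole range.

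Il1rapl2 lies on the X chromosome (GRCm38, X, 137570608 to 138846946, plus strand). It ranged from 0 to 1005 CPM in Pvalb Il1rapl2 cells with a median of 169 CPM (quartiles 34.8 and 339), against 0 to 753 CPM with a median of 0 CPM in the other Pvalb cells. Its summed level was 235 CPM (exact Poisson 95% interval 232 to 238) against 37 CPM (36.4 to 37.7), a log2 fold change of 2.63. Intervals of levels and of their ratios cover the counting of reads alone and leave out the spread between cells. Reads were not collapsed to molecules and PCR copies of 1 molecule are counted apart, so that these intervals are too narrow for molecules. Intervals of shares of cells treat the cells as independent draws. The gene had no exonic read in 14 of the 88 cells. After each cell was thinned to 200000 exonic counts, 83.3% of 84 Pvalb Il1rapl2 cells had a read (exact binomial 95% interval 73.6% to 90.6%), against 23.8% of 189 other Pvalb cells (17.9% to 30.5%). Without thinning the share was 84.1% in Pvalb Il1rapl2 cells and 24.7% in the other Pvalb cells. In the excitatory type L4/5 IT_2, which had a median depth of 1012838 counts, 38.7% of 31 thinned cells had a read, so that this gene is not limited to Pvalb neurons.

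Il1rapl2 was unevenly spread over the other t-types. Its summed level was 80.1 CPM in Pvalb Calb1_2, 62.8 CPM in Pvalb Reln, 19 CPM in Pvalb Vipr2_2 and 10.8 CPM in Pvalb Kank4, and no exonic read was found in Pvalb Gpr149, Pvalb Egfem1, Pvalb Calb1_1 and Pvalb Gabrg1. With 3 counts as the limit that a count of 0 allows, those sums leave room for up to 0.0634 CPM in Pvalb Gpr149 and up to 0.234 CPM in Pvalb Gabrg1. The upper quartile over cells was 76.5 CPM in Pvalb Reln, which lies inside the quartiles of Pvalb Il1rapl2. Intronic reads, scaled by the exonic total, gave 3089 CPM in Pvalb Il1rapl2 cells against 521 CPM in the other Pvalb cells, a log2 fold change of 2.56. An intronic read was found in 96.6% of Pvalb Il1rapl2 cells and 96% of the other Pvalb cells, so that the share of cells with a read differed in exonic reads and hardly in intronic reads. The log2 fold change in exonic reads was 1.31 in the cells of 2018 and 4.48 in those of 2019. Pvalb Il1rapl2 cells held 199 CPM in 2018 and 312 CPM in 2019, and the other Pvalb cells 79.7 CPM and 13.1 CPM in the same years.

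Tac1, which encodes the precursor of substance P, gave different pictures by its sum and by its cells. The summed level was 423 CPM in Pvalb Il1rapl2 cells against 663 CPM in the other Pvalb cells, whereas 81% of thinned cells had a read against 61.4% (3.23% in L4/5 IT_2). Over cells it ranged from 0 to 1861 CPM with a median of 282 CPM in Pvalb Il1rapl2, against 0 to 5001 CPM with a median of 300 CPM. The other t-types lay on both sides, with summed levels of 2026 CPM in Pvalb Egfem1 and 1547 CPM in Pvalb Calb1_2, and of 194 CPM in Pvalb Reln and 41 CPM in Pvalb Vipr2_2. Syt2, a fast calcium sensor of vesicle release, ranged from 0 to 459 CPM with a median of 24.7 CPM, against 0 to 1683 CPM with a median of 65.8 CPM, and Pvalb Reln was the highest t-type for it at 228 CPM. Neither Tac1 nor Syt2 was highest in Pvalb Il1rapl2.

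**Figure D1:**
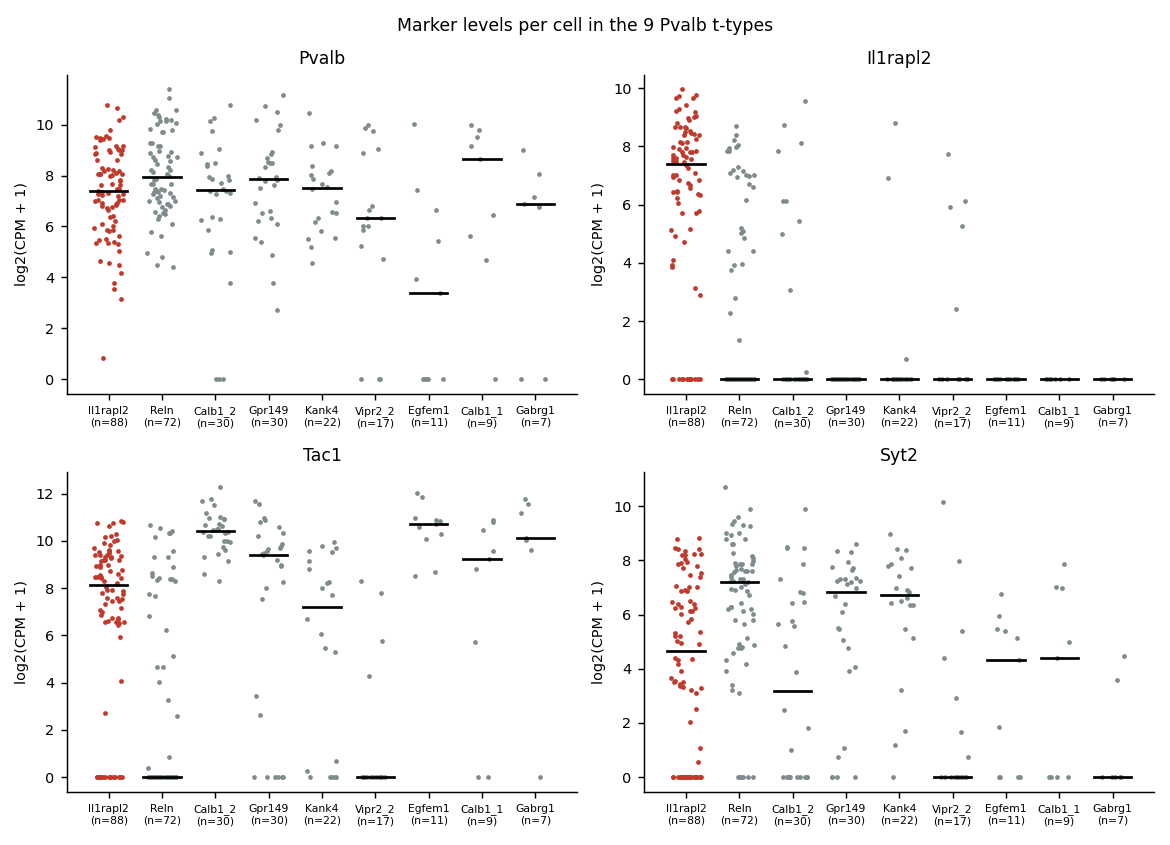
Level of Pvalb, Il1rapl2, Tac1 and Syt2 in each cell, as log2(CPM + 1), for the 9 Pvalb t-types, with a bar at the median of each t-type. Only Il1rapl2 has its highest median in Pvalb Il1rapl2, at 169 CPM, and 14 of the 88 cells lie at 0.

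Across the transcriptome, 8517 genes reached 20 CPM and a read in at least 25% of cells in 1 of the groups. Of these, 132 (1.55%) were at least 2-fold higher in Pvalb Il1rapl2 cells than in the other Pvalb cells and 171 (2.01%) at least 2-fold lower, on log2(CPM + 1) of summed counts. The median log2 fold change of all 8517 genes was 0.03. The sign was the same in both years and in the mean over cells for 128 of the 132 higher genes and 160 of the 171 lower genes, while 57 and 60 of them were past the 2-fold line in both years.

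Col25a1, which encodes a membrane collagen, had the largest fold change among the higher genes. It ranged from 0 to 1281 CPM in Pvalb Il1rapl2 cells with a median of 62.4 CPM, against 0 to 145 CPM with a median of 0 CPM. The summed level was 177 CPM against 3.26 CPM (log2 fold change 5.38), and the next t-type, Pvalb Calb1_1, had 13.5 CPM. A read was found in 67.9% of thinned cells against 7.94% (54.8% in L4/5 IT_2), and the mean level was higher on 28 of the 37 title dates that hold both groups. Of the 88 cells, 65 had a Col25a1 read before thinning, so that it was absent from more cells than Il1rapl2.

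The promoters of Il1rapl2 and Col25a1 are shown because these genes were the name gene of the t-type and the gene with the largest difference. Each is the 250 bases before the gene's start from RefSeq on GRCm38.p6, at chrX:137570504-137570753 and chr3:130180595-130180844, both on the plus strand. The GENCODE annotation places the starts elsewhere, at 137570608 for Il1rapl2 and 130131501 for Col25a1, so that by it part of the Il1rapl2 window and the whole Col25a1 window lie inside the gene. Neither holds the homeodomain core TAATTA on either strand, nor the TATA box letters TATAAA, nor the cyclic AMP response element TGACGTCA, so that no letter is in capitals. These motifs are in 4.84%, 12.4% and 1.55% of all 32851 windows of this length.
Il1rapl2: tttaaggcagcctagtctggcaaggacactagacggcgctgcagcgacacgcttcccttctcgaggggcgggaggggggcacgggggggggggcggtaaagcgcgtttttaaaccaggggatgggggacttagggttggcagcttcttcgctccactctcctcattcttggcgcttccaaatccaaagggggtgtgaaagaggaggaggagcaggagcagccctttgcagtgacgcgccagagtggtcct
Col25a1: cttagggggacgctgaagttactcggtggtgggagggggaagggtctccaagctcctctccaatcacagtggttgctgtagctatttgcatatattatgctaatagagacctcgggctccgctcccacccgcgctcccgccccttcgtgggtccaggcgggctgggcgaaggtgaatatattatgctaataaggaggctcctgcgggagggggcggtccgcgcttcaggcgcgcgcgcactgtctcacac

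The other genes with large positive differences encode proteins of several classes. Etv1, a transcription factor of the ETS family, had 70.3 CPM against 7.33 CPM, and Ntng1, a netrin-like adhesion protein, 67.8 CPM against 7.67 CPM. Kcnh5, a voltage-gated potassium channel, had 26.4 CPM against 3.05 CPM, and Tpbg, a membrane glycoprotein, 20.1 CPM against 1.61 CPM. Kcnh5 was read in 32 and Tpbg in 31 of the 88 cells, each with a median of 0 CPM, and Tpbg passed the filter of 20 CPM narrowly. Pcdh15 and Ncam2, both adhesion molecules, had 124 CPM against 20.8 CPM and 65.6 CPM against 11 CPM. Il1rapl2, Lmo7, Moxd1, Calb1 and Ptprz1 complete the 12 largest, and 11 of the 12 had their highest summed level in Pvalb Il1rapl2. The 12 were chosen for their excess over these same t-types, so that this rank was nearly fixed by the choice. Some second t-types were close, with Moxd1 at 161 CPM beside 126 CPM in Pvalb Calb1_1. Lmo7 was at 39.1 CPM beside 26.3 CPM in Pvalb Calb1_2. Of the 12, only Pcdh15 also passed the filter through the other Pvalb cells. Calb1 was the exception.

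Calb1, which encodes the calcium buffer calbindin, had 140 CPM in Pvalb Il1rapl2 cells against 28.6 CPM in the other Pvalb cells. It was higher still in Pvalb Calb1_1, at 199 CPM, and lower in Pvalb Calb1_2, at 76.6 CPM. The gene was read in 42 of the 88 cells, and its median was 0 CPM in every Pvalb t-type.

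Among the lower genes, Chrm2, the muscarinic acetylcholine receptor M2, had the largest difference. It was read in 2 of the 88 cells, at up to 15.7 CPM, against 71 of the 198 other Pvalb cells at up to 746 CPM. The summed level was 0.191 CPM against 57.8 CPM (log2 fold change -5.63). Pvalb Reln was also low for it, at 0.961 CPM, whereas Pvalb Egfem1 had 266 CPM and Pvalb Gabrg1 134 CPM. The muscarinic gene was thus low in the 2 t-types with the most cells. It was also low in Pvalb Vipr2_2, at 5.18 CPM, and in Pvalb Calb1_1, at 5.61 CPM.

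Pnoc, the precursor of nociceptin, had 2 reads in all in Pvalb Il1rapl2 cells, 0.0153 CPM against 20 CPM, and the ratio of these levels had an exact 95% counting interval of 9.26e-05 to 0.00276. Sema3e, a secreted guidance cue, had 2.97 CPM against 84.3 CPM and was read in 2 cells of the 88. Cnr1, the cannabinoid receptor CB1, had 4.89 CPM against 89.7 CPM. Matn2, Spon1, Stxbp2, Ryr1, Galnt14, Brinp3, Lama3 and Pdzrn3 complete the 12 with the largest negative differences, with log2 fold changes between -4.64 and -2.78. Pvalb Il1rapl2 had the lowest level of the 9 t-types for Chrm2, Matn2, Pnoc, Stxbp2 and Lama3, and Pvalb Vipr2_2 was lower for Sema3e and Cnr1. All 12 passed the filter only through the other Pvalb cells, where they are high. Against Pvalb Reln alone, Lama3 had a log2 fold change of -0.21, Chrm2 -0.72 and Spon1 -0.98, short of the line. The rest of the 12 were past the line against Pvalb Reln. Lama3 and Spon1 were highest in Pvalb Egfem1, at 121 CPM and 947 CPM.

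**Figure D2:**
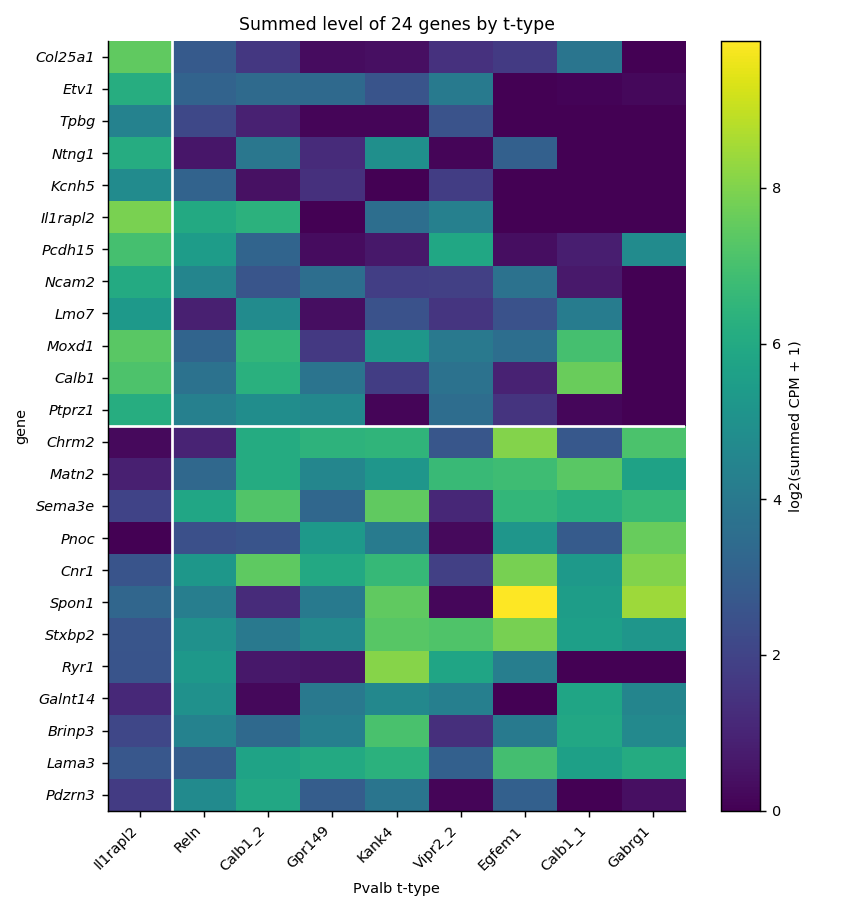
Summed level, as log2(CPM + 1), of the 12 genes with the largest positive (upper rows) and negative (lower rows) log2 fold changes in the 9 Pvalb t-types, with Pvalb Il1rapl2 in the left column. Col25a1 stands at 177 CPM in Pvalb Il1rapl2 and at 13.5 CPM or less in each other t-type, whereas Chrm2 is at 0.191 CPM there and at 0.961 CPM in Pvalb Reln.

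The genes that give the other Pvalb t-types their names were mostly near the floor in Pvalb Il1rapl2 cells. Only Il1rapl2 and Calb1 of 8 name genes passed the filter. Reln, a secreted glycoprotein, was at 0.191 CPM against 12.2 CPM, and Gpr149, an orphan receptor, had 4 reads in all against 7.77 CPM. Kank4 was at 4.28 CPM against 4.48 CPM, and it was higher in Pvalb Vipr2_2, at 17.6 CPM, than in the t-type named for it, at 10.3 CPM.

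Over all genes tested, 8214 of 8517 lay within 2-fold, 1.55% were higher and 2.01% lower, and the counts by list are given beside these shares. In the fast-spiking list 0 of 19 tested members were at least 2-fold higher and 2 at least 2-fold lower, with a median log2 fold change of -0.25 beside 0.03 over all genes. Those 2 were Rbp4, a retinol carrier, at 20.1 CPM against 90.3 CPM, and Pthlh, a secreted peptide, at 14.9 CPM against 40.1 CPM. In the cells of 2018 both were short of the line, with log2 fold changes of -0.44 for Rbp4 and -0.88 for Pthlh, and against Pvalb Reln alone Rbp4 had 1.81. Kcnc1, a potassium channel of the Kv3 group, had 630 CPM against 579 CPM, and its relative Kcnc2 399 CPM against 692 CPM. None of 9 genes of GABA synthesis and transport, 18 of vesicle release, 9 of GABA-A receptors, 15 of oxidative metabolism and 13 immediate early genes was past the 2-fold line. Gad1, which makes GABA, had 2068 CPM against 2594 CPM.

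Of 24 voltage-gated potassium (Kv) channel genes tested, Kcnh5 was past the line upward and Kcnq5, an M-current subunit, downward (11.8 CPM against 37.1 CPM). Kcnh5 passed the filter only through Pvalb Il1rapl2 cells and Kcnq5 only through the other Pvalb cells. Of 16 sodium, HCN and calcium channel genes, Cacnb2, a calcium channel beta subunit, was past it, at 23.1 CPM against 58.3 CPM, but its log2 fold change was 0.08 in the cells of 2018 and -2.33 in those of 2019.

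Glutamate receptor genes showed differences in both directions. Grin2a, an NMDA receptor subunit, ranged from 0 to 1424 CPM with a median of 262 CPM, against 0 to 1498 CPM with a median of 8.40 CPM. Its level in Pvalb Reln was similar, at 263 CPM beside 311 CPM in Pvalb Il1rapl2, and it was 10.6 CPM in Pvalb Gpr149. Its log2 fold change over the other Pvalb cells was 0.55 in the cells of 2018, short of the line. Grik1, a kainate receptor subunit, ranged from 0 to 3154 CPM with a median of 0.214 CPM, against 0 to 2350 CPM with a median of 117 CPM, and of the other t-types only Pvalb Vipr2_2 was lower. The metabotropic receptor genes Grm7 and Grm3 were also past the line, at 3.63 CPM against 20.6 CPM and 5.60 CPM against 20.8 CPM. Both passed the filter narrowly and only through the other Pvalb cells. Intronic reads of Grm3 did not differ, at 133 CPM against 135 CPM, and those of Grm7 were at 96.6 CPM against 277 CPM. Of 15 tested members 1 was higher and 3 lower, beside 1.55% and 2.01% over all genes, and the remaining 11 lay within 2-fold.

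Beside the 1.55% higher and 2.01% lower over all genes, 3 of 11 tested calcium-binding protein genes were at least 2-fold higher, namely Calb1, Necab1 (42.3 CPM against 9.47 CPM) and Caln1 (161 CPM against 54.1 CPM). Calb1 and Necab1 passed the filter only through Pvalb Il1rapl2 cells, where they are high. The list as a whole did not rise, with a median log2 fold change of -0.14 and summed levels of 3679 CPM against 3782 CPM. Of the perineuronal net list, the matrix around these interneurons, 2 of 11 were higher, namely Ptprz1, a receptor phosphatase, and Adamts8, a protease, at 106 CPM against 49.6 CPM. Ptprz1 likewise passed the filter only through Pvalb Il1rapl2 cells. Adamts8 was at 89.4 CPM in Pvalb Reln, and its log2 fold change over the other Pvalb cells was 0.71 in 2018. Of the adhesion and wiring genes, 2 of 33 were higher and 4 lower. Nlgn1, a postsynaptic adhesion protein, was at 105 CPM against 46.1 CPM (log2 fold change 0.72 in 2018, and 0.28 against Pvalb Reln alone), and Pcdh9 and Cdh13, both cadherins, were at 224 CPM against 545 CPM and 24.5 CPM against 70.2 CPM. In the interleukin-1 receptor list 1 of 6, Il1rapl2 itself, was past the line, and Il1rapl1 was at 133 CPM against 127 CPM. Of 10 tested regulators of the ganglionic eminence lineage, Etv1 alone was past it, and Lhx6, which specifies these interneurons, was at 115 CPM in both groups. Etv1 passed the filter only through Pvalb Il1rapl2 cells.

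**Figure D3:**
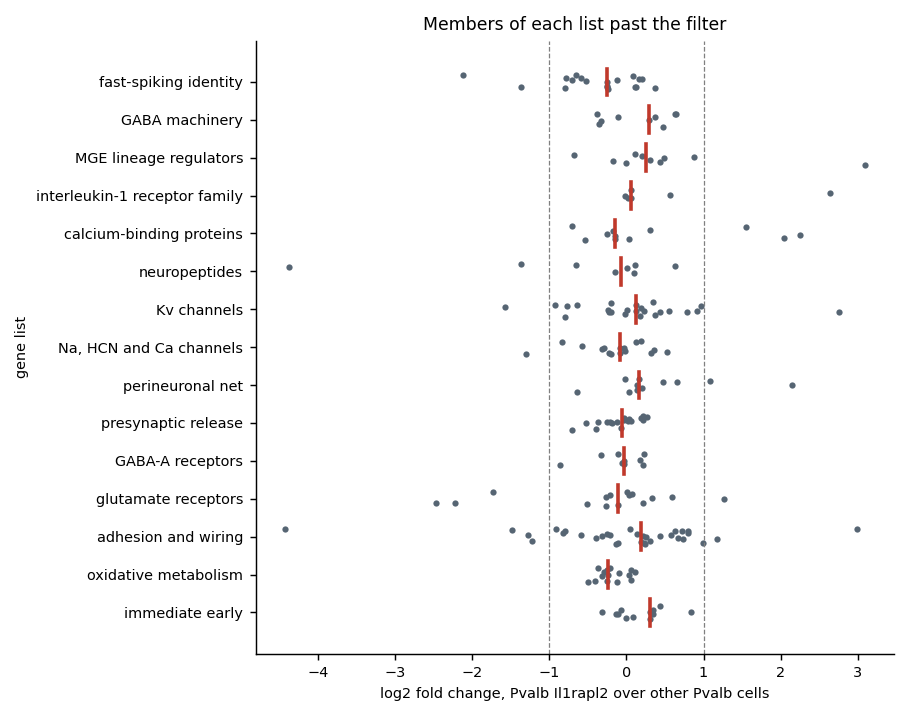
Log2 fold change of Pvalb Il1rapl2 over other Pvalb cells for each gene that passed the filter, by list, with a bar at the median of the list and dashed lines at 2-fold. Medians of these 15 lists lie between -0.25 and 0.30, and single members such as Etv1 and Sema3e lie far from them.

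Npy, a neuropeptide, was at 204 CPM in Pvalb Il1rapl2 cells and 203 CPM in the other Pvalb cells, but these sums hid large differences. It ranged from 0 to 2387 CPM in Pvalb Il1rapl2 cells with a median of 39.9 CPM, against 0 to 7102 CPM with a median of 0 CPM. Pvalb Reln and Pvalb Gpr149 were nearly without it, at 0.943 CPM and 3.72 CPM, and Pvalb Gabrg1 and Pvalb Calb1_1 had 869 CPM and 761 CPM. The log2 fold change was 2.64 in the cells of 2018 and -2.08 in those of 2019. Within Pvalb Il1rapl2 the level was 266 CPM in 2018 and 68.6 CPM in 2019, and within the other Pvalb cells it was 41.9 CPM and 293 CPM.

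**Figure D4:**
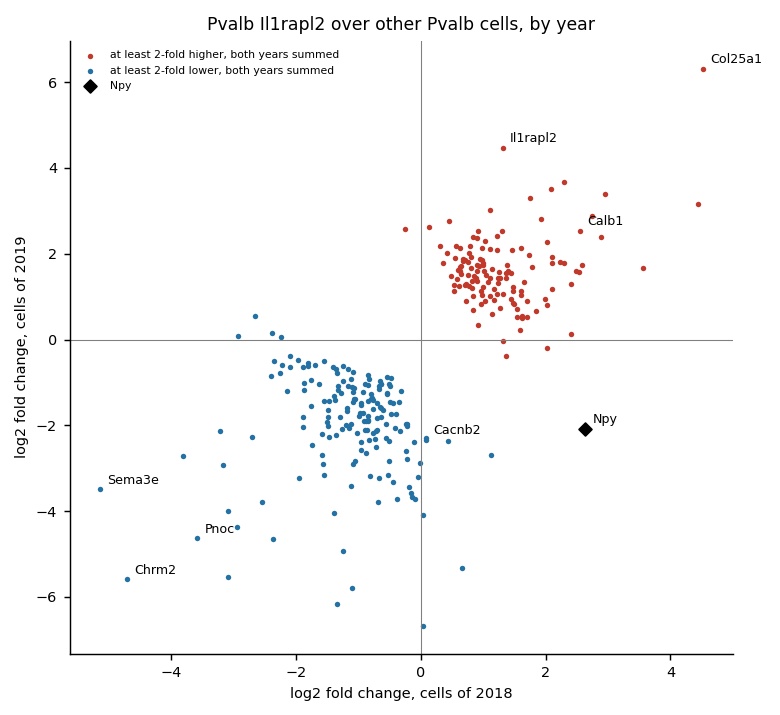
Log2 fold change of Pvalb Il1rapl2 over other Pvalb cells in the cells of 2018 (x axis) and of 2019 (y axis) for the 303 genes past the 2-fold line, and for Npy (diamond, 2.64 and -2.08). Chrm2 and Pnoc had no read in Pvalb Il1rapl2 cells of 2018, so that their place on the x axis depends on the 1 CPM added.

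Against Pvalb Reln alone, the t-type with the next most cells, 315 of 8482 genes (3.71%) were at least 2-fold higher in Pvalb Il1rapl2 and 216 (2.55%) at least 2-fold lower. Of the 132 genes higher than in all other Pvalb cells, 87 were also past the line against Pvalb Reln, and 89 of the 171 lower genes were. Pvalb Reln is part of the other Pvalb cells, so that these counts are not independent. In this comparison Npy had a log2 fold change of 6.72, Ntng1 5.5 and Moxd1 4.16, whereas Reln had -4.45.

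By correlation over 1000 variable genes, 72 of the 88 cells (81.8%) were nearest to the mean profile of their own t-type among the 9, with the cell itself left out. The same share was 90.9% of 22 cells in Pvalb Kank4, 72.7% of 11 in Pvalb Egfem1, 56.9% of 72 in Pvalb Reln, 30% of 30 in Pvalb Calb1_2 and 0 of 7 in Pvalb Gabrg1. The mean profiles rest on 88 cells down to 7, so that shares of large and small t-types are not directly comparable. The authors assigned the t-types from this same RNA, and the variable genes were chosen in these Pvalb cells. Of the other 16 Pvalb Il1rapl2 cells, 11 were nearest to Pvalb Reln, 3 to Pvalb Calb1_1, 1 to Pvalb Calb1_2 and 1 to Pvalb Gpr149. In the opposite direction, 19 of 72 Pvalb Reln cells, 6 of 30 Pvalb Calb1_2 cells and 5 of 17 Pvalb Vipr2_2 cells were nearest to Pvalb Il1rapl2.

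Among the 88 cells, the Spearman rank correlation of Il1rapl2 with 12 other genes lay between -0.16 (Npy) and 0.22 (Syt2). It was -0.02 with Col25a1 and 0.06 with Tac1. All of these are descriptions over cells sequenced to unequal depth. The largest value among the pairs computed was 0.40, between Ntng1 and Pcdh15. Over the 8 title dates with at least 3 Pvalb Il1rapl2 cells, the median of Il1rapl2 ranged from 0 to 283 CPM and that of Pvalb from 85.3 to 566 CPM.

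Markers of some other cell types differed between the groups, and most of these differences were smaller in 2019. The median log2 fold change of tested microglia markers was -0.76 in 2018 and -0.07 in 2019. That of oligodendrocyte markers was -1.26 and -0.39, and that of astrocyte markers -0.63 and -0.54. The 7 oligodendrocyte markers summed to a median of 70.6 CPM per cell in Pvalb Il1rapl2 (range 0 to 8520, quartiles 0.352 and 387), against 454 CPM (range 0 to 9602, quartiles 98 and 1181), and the 8 microglia markers to 221 CPM (range 0 to 4049) against 255 CPM (0 to 14807). Csf1r and P2ry12, both of microglia, were at 67 CPM against 186 CPM and 39.5 CPM against 83 CPM, and the myelin gene Mobp at 68 CPM against 171 CPM. Csf1r had a median of 0 CPM in both groups and was read in 29.5% of cells against 32.8%, whereas Mobp was read in 27.3% against 53.5%. The 8 astrocyte markers summed to a median of 141 CPM (range 0 to 2763) against 227 CPM (0 to 5409). Of the members that passed the filter, 2 of 4 oligodendrocyte, 2 of 7 microglia and 0 of 3 astrocyte markers were at least 2-fold lower, and no member of the 3 lists was without a read in either group. The part of this in the gene counts was not tested, and without cells of over 2000 CPM of glial markers 190 genes were higher and 240 lower. Sst was at 0.528 CPM against 11.7 CPM and Vip at 0.0688 CPM against 0.552 CPM. Of the 8 excitatory markers only Camk2a passed the filter, at 304 CPM against 161 CPM, and the others did not move 1 way. Slc17a7, the vesicular glutamate transporter, was at 1.43 CPM against 4.67 CPM. The transcription factors Tbr1 and Fezf2 were higher in summed exonic level, at 9.62 CPM against 1.48 CPM and 3.09 CPM against 0.271 CPM. Tbr1 was read in 11.9% of thinned cells against 5.29%, and Pvalb Il1rapl2 had its highest level of the 9 t-types. Before thinning it was read in 11 of the 88 cells. Its intronic reads went the other way, at 0.138 CPM against 0.513 CPM, both low. Of the 37 title dates with both groups, its mean level was higher on 6 and lower on 8. Of the 6 chandelier markers only Pthlh, given above, passed the filter. Vipr2 was at 1.36 CPM against 2.31 CPM, with 35.1 CPM in Pvalb Vipr2_2, and Nkx2-1 was at 0.00765 CPM in Pvalb Il1rapl2 cells.

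**Figure D5:**
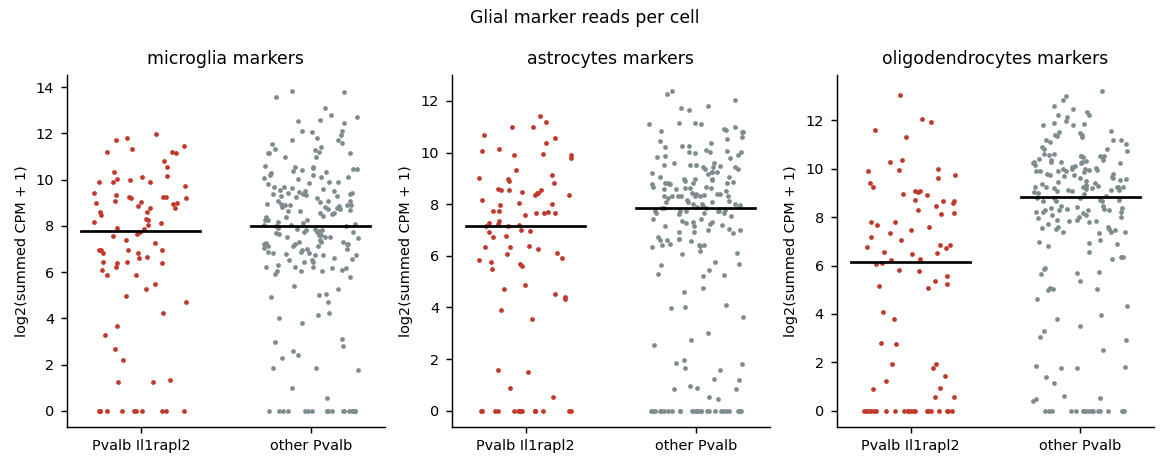
Summed level of microglia, astrocyte and oligodendrocyte markers in each cell, as log2(CPM + 1), in Pvalb Il1rapl2 cells (left) and other Pvalb cells (right), with bars at the medians. The oligodendrocyte medians are 70.6 CPM and 454 CPM for the same order, and the groups overlap.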

How the data were processed

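RNA of single neurons was measured by Patch-seq. The authors demultiplexed the reads with bcl2fastq (version 2.20), aligned them to mm10 with STAR (version 2.5.4b) and assigned them with zUMIs and Gencode M23. The values deposited by the authors are raw exonic and intronic read counts per gene, without molecular identifiers. Of 1329 columns of the room-temperature exonic table, 9 match no sample and were set aside. The 85 spike-in rows were left out. Cells recorded at physiological temperature were not used. No doublet caller was run, because every library came from 1 patched neuron.

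For each group the counts of its cells were added up and scaled to CPM, and log2 fold changes were taken after adding 1 CPM. Genes needed 20 CPM and a read in 25% of cells in 1 group. Sums give deep cells more weight. Intervals are exact 95% Poisson or binomial intervals. No test was made, since the labels name no animal. Excitatory cells had been planned as the background for shares of cells, and this was narrowed to L4/5 IT_2, which expresses Il1rapl2 and Col25a1 itself. Named genes were the markers, the genes in Pvalb t-type names, the 12 genes furthest up and the 12 furthest down with 1 sign in both years and in the mean over cells, and from each of 25 lists up to 4 members past the filter and the 2-fold line, or else up to 2 by level. The text gives a selection of them, some genes are not reported here, and other list genes named were chosen after their values were seen. Members and lists were chosen with earlier results of these data known. The nearest profile used variable genes chosen by dropout against mean level. Alternatives changed the cells, year, dates, pseudocount, filter, scaling, reads counted and depth. Chosen after seeing the data were equal weights for t-types, leaving out cells with glial reads and a nearest profile among 5 t-types. Gene coordinates are from GENCODE M21 on GRCm38. The sums were tested on simulated data. Python 3.11.15, numpy 2.4.6, pandas 2.3.3, scipy 1.17.1 and matplotlib 3.10.9 were used.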

Additional observations from a re-analysis of the deposited data

Results flagged for a closer look

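Npy differed in direction between the years. Its log2 fold change of Pvalb Il1rapl2 over other Pvalb cells was 2.64 in the cells of 2018 and -2.08 in those of 2019. The difference was not tested. Of the other Pvalb cells, 55 of 86 were Pvalb Reln cells in 2018 and 17 of 112 in 2019, and Pvalb Reln had 0.943 CPM of Npy.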

How the results depend on the processing

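The counts of 132 higher and 171 lower genes stayed within 1.5 times under deep cells alone, the mean over cells, median-of-ratios scaling, leaving out Pvalb Vipr2_2, exonic plus intronic reads, thinned cells and leaving out the 2 deepest cells of each group. The genes were not all the same ones. Thinned cells kept 92 of the higher and 115 of the lower genes, the mean over cells 97 and 129, and median-of-ratios scaling 132 and 170. With cells of 2018 alone 261 genes were higher, with cells of 2019 alone 568 were higher and 622 lower, and on dates with both groups 201 were higher. A pseudocount of 10 CPM gave 72 higher and 79 lower, no filter 923 and 1397, and a filter of 50 CPM 63 and 58. With t-types weighted equally, chosen after seeing the data, 234 were higher. The filters test other numbers of genes and the year and date settings hold fewer cells, and otherwise the cause was not tested. Of the 132 higher genes, 70 were also past the line in 2018 and 101 in 2019, and of the 171 lower genes 65 and 135. Exonic plus intronic reads kept 63 of the higher and 101 of the lower genes. Cacnb2 changed sign in the cells of 2018, at 0.084. The other 40 of 41 named genes past the line kept their sign in all 13 settings tried on them. Those named as furthest up or furthest down had been chosen for the same sign in both years and in the mean over cells. For these genes the settings of 2018 alone and 2019 alone could not show a change of sign, so that their kept sign there is no check. A pseudocount of 10 CPM cannot change the sign of any gene, so that this setting is no check either. All 41 genes were chosen as past the line in these same cells. With 500 variable genes 73 of the 88 cells were nearest to their own t-type, and among the 5 t-types of at least 20 cells 72 were with 1000 genes. No paired analysis was possible because the labels give no replicate numbers shared between t-types and the results come from no test, and the 37 title dates with both groups were used as a setting in its place. Cells of 11411 counts limit what a missing read shows.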
